A study of Mus musculus with 24 samples.

Results

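MicroRNAs (miRNAs) are short RNAs that pair with messages through their first bases and lower the output of those messages. The 4 lung miRNA names described here were followed over the first 6 weeks of mouse life: mmu-miR-218, mmu-miR-340-5p and the arm pair mmu-miR-455* and mmu-miR-455 (mmu stands for mouse and is left out below). They are 4 of the 650 miRNA names on the array and 4 of the 322 that could be tested. miR-218, miR-455* and miR-340-5p were chosen because their levels on these same arrays were higher at days 4 to 14 than at day 1 and at day 42, and miR-455 was added because it is the other arm of the miR-455* hairpin. The values that chose them are therefore given as a description, and tests of the members are reported only for contrasts that were not themselves used in the choice.

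Whole lungs of C57BL/6 mice gave total RNA that was measured on 24 Agilent 1-colour arrays, 1 array per biological replicate: day 1, day 4, day 7 and day 14 after birth with 5 arrays each, and 6 weeks, written as day 42, with 4 arrays. No treatment or genetic change is given for any group. The series is titled as fetal lung, but ages after birth are given by all sample labels and by the design text, and those were used. Whole lung mixes many cell types, so fewer cells of a type and less RNA per cell cannot be told apart in any value below.

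A miRNA hairpin is cut into a duplex with a 5p and a 3p arm, and 1 arm or both can be kept. The bases 2 to 8 of the kept arm, the seed, do most of the pairing with messages. Mouse lungs form most of their alveoli in the first weeks after birth, which the middle ages of this series cover. miR-218 is made from hairpins inside Slit2 and Slit3, genes of secreted ligands for Robo receptors, and it is known to repress Robo messages. The miR-455 hairpin lies inside Col27a1, which encodes a fibrillar collagen of cartilage, and both of its arms are studied in cartilage. miR-340 lies inside Rnf130, which encodes a ring finger protein, and miR-340-5p is known mainly from tumour cell lines, where it restrains growth.

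The mature sequences are shown because the members share no seed and because the arrays measured both arms of a hairpin in 2 cases. They are from RefSeq (GRCm38.p6), 5′ to 3′, with the seed in capitals. The array uses older names. From general knowledge of miRNA naming these were matched to RefSeq as miR-218-5p, miR-455-5p for miR-455* and miR-455-3p for miR-455, and the 340 arms keep their names. No probe sequence was used here to check the match, so the arm, seed and base composition given for an array name rest on it.
miR-218: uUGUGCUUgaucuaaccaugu
miR-455*: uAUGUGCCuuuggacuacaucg
miR-455: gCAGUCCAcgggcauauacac
miR-340-5p: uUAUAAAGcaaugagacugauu
miR-340-3p: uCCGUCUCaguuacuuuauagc
Of the 1679 mouse mature names in the RefSeq table, only miR-7002-3p has the seed of miR-218 and only miR-5129-3p that of miR-455*, and neither is on the array under those names. No other name has the seed of miR-455 or miR-340-5p. The members differ in base composition: 6 of the 22 bases of miR-340-5p are G or C, against 8 of 21 in miR-218, 10 of 22 in miR-455* and 12 of 21 in miR-455.

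A single mature miR-218 comes from 2 hairpins, so its level is a sum over 2 genes that the array cannot separate. Mir218-1 lies at chr5:48223942-48224051 and Mir218-2 at chr11:35616816-35616925, both on the plus strand. Their hairpins are shown with both arms in capitals. The first capital run is the same in both, and the second differs.
Mir218-1: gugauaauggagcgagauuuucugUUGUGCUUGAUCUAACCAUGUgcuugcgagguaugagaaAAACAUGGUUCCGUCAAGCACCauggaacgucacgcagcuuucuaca
Mir218-2: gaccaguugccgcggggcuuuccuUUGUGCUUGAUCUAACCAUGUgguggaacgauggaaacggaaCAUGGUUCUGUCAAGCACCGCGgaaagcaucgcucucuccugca
Mir340: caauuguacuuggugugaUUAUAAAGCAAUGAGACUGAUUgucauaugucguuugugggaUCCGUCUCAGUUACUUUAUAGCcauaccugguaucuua
Mir340 lies at chr11:50069702-50069799 on the plus strand, and its arms are the measured pair miR-340-5p and miR-340-3p. The arms of miR-455 lie on the plus strand at chr4:63256867-63256888 for miR-455* and at chr4:63256904-63256924 for miR-455. Each mature sequence lies within the span of its host gene in the same annotation.

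Levels are background-subtracted intensities summed over the probes of a name and scaled between arrays, on a linear scale where no log is named. Brightness of an array is the 75th percentile, before scaling, of the 228 miRNAs detected on all arrays. It ranged from 923 to 4954 and was lower at the young ages, with means of 1539, 1957, 2418, 3239 and 3104 for days 1, 4, 7, 14 and 42. The 6 dimmest arrays, from 923 to 1727, were day 1 replicates 1, 4 and 5, day 4 replicates 1 and 3, and day 42 replicate 4. On them the levels of all 4 members departed from those of the brighter arrays of the same age, so results are given with and without them. That choice was made after seeing the data. The remaining 18 arrays are 2 of day 1, 3 of day 4, 5 of day 7, 5 of day 14 and 3 of day 42.

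miR-218 had its highest means at days 7 and 14. At day 1 it had levels of 1408, 1962, 2235, 555 and 891, and at day 4 of 1235, 2636, 1784, 2348 and 2579. Day 7 gave 2900, 2928, 2789, 2703 and 2465, and day 14 gave 2365, 2780, 2505, 2581 and 2917. Day 42 gave 785, 744, 727 and 424. All arrays of day 7 and day 14 lay above all of day 1 and day 42, and the 3 dimmest arrays of day 1 were its lowest. That separation belongs to the pattern that chose miR-218, and its share over all miRNAs was not counted. Its log2 means for days 1, 4, 7 and 14 were 10.29 ± 0.83, 10.99 ± 0.46, 11.43 ± 0.10 and 11.36 ± 0.12 (SD, n = 5 each), and day 42 had 9.35 ± 0.42 (SD, n = 4). Without the 6 dimmest arrays the log2 means were 11.03, 11.30, 11.43, 11.36 and 9.55 in the same order of ages, so that day 1 lay 0.39 below day 7 and day 42 lay 1.87 below it.

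miR-455*, the 5p arm of its hairpin, had its highest mean at day 7. Its levels were 125, 128, 164, 31.9 and 54.7 at day 1 and 60.7, 166, 102, 140 and 162 at day 4. They were 171, 170, 155, 169 and 152 at day 7, 83.3, 101, 96.9, 92.6 and 144 at day 14, and 45.7, 41.8, 44.5 and 26.7 at day 42. The value of 31.9, from day 1 replicate 4, is the only one of its 24 that the deposited flags call not detected. The arrays of day 14 lay below all of day 7 and those of day 42 below all of day 14. Arrays of day 14 and day 7 did not overlap for 37% of all miRNAs, and the share for day 42 and day 14 was not counted. In log2 units, days 1, 4, 7 and 14 averaged 6.42 ± 0.99, 6.89 ± 0.61, 7.35 ± 0.08 and 6.67 ± 0.30 (SD, n = 5 each), and day 42 had 5.28 ± 0.36 (SD, n = 4). On the 18 brighter arrays they were 7.18, 7.28, 7.35, 6.67 and 5.46.

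miR-455, the 3p arm, had no peak on the scaled levels and its means were lower after day 7. It had levels of 502, 342, 411, 850 and 732 at day 1 and 898, 500, 673, 419 and 399 at day 4. The levels were 427, 439, 415, 602 and 492 at day 7, 254, 245, 190, 210 and 359 at day 14, and 140, 118, 118 and 306 at day 42. Here the dimmest arrays were the highest of their ages, opposite to the other members. On the log2 scale the means for days 1, 4, 7 and 14 were 9.06 ± 0.55, 9.10 ± 0.49, 8.88 ± 0.22 and 7.94 ± 0.35 (SD, n = 5 each), and day 42 had 7.29 ± 0.66 (SD, n = 4). On the 18 brighter arrays the means were 8.55, 8.77, 8.88, 7.94 and 6.96, and day 7 then had the highest mean for this arm as well.

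miR-340-5p had the largest SD of the log2 level among the members at days 1, 4 and 42. It had levels of 149, 247, 271, 37.3 and 72.9 at day 1 and 78.7, 272, 156, 242 and 280 at day 4. They were 325, 319, 298, 262 and 244 at day 7, 186, 250, 233, 233 and 295 at day 14, and 158, 156, 150 and 61.3 at day 42. Day 1 replicate 4, at 37.3, was again the only array flagged as not detected. Means of the log2 level for days 1, 4, 7 and 14 were 6.93 ± 1.22, 7.55 ± 0.77, 8.17 ± 0.18 and 7.89 ± 0.24 (SD, n = 5 each), and day 42 had 6.94 ± 0.67 (SD, n = 4). On the 18 brighter arrays the log2 means were 8.01, 8.05, 8.17, 7.89 and 7.27, so that day 1 and day 4 differed by 0.03 and day 42 had the lowest mean.

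**Figure D1:**
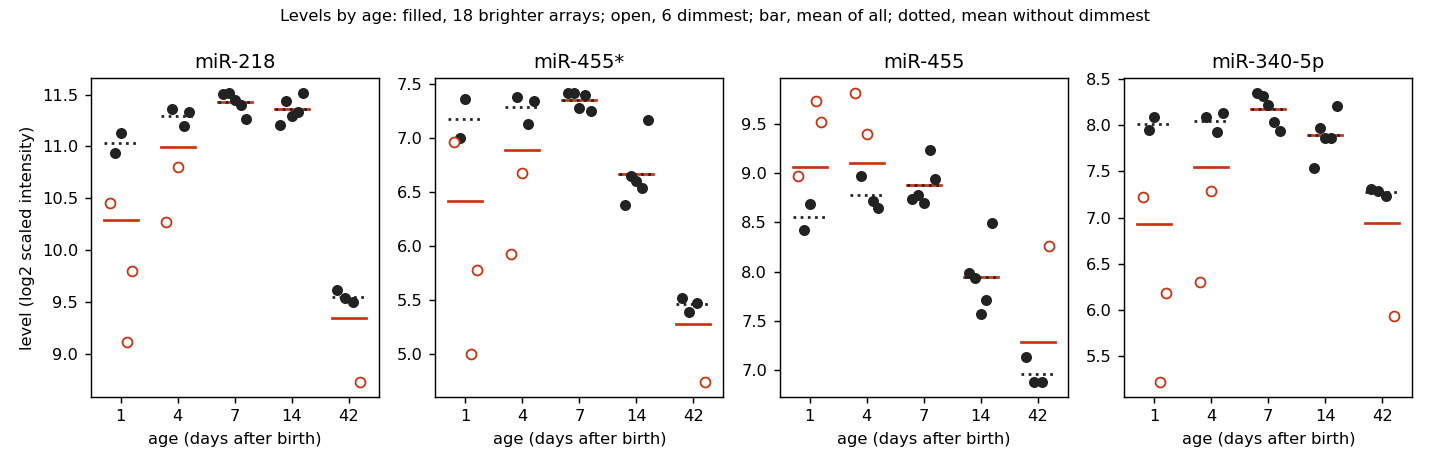
Level of each member (log2 of scaled intensity, a separate axis range per panel) on each of the 24 arrays by age in days; filled points are the 18 brighter arrays, open points the 6 dimmest, the solid bar the mean of all arrays of an age and the dotted bar the mean without the dimmest. The open points lie low at day 1 for miR-218, miR-455* and miR-340-5p and high for miR-455, and day 42 is the lowest age for the filled points of all 4 members.

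The probes of each member gave the same course. Each had 2 probes, and the larger share of the summed signal was 59.6% for miR-218, 65.9% for miR-455*, 76.8% for miR-455 and 50.6% for miR-340-5p. The mean of days 4, 7 and 14 minus the mean of days 1 and 42, on the log2 scale, was 1.44 for each probe of miR-218, 1.21 and 1.08 for those of miR-455*, 0.54 and 0.44 for those of miR-455, and 0.91 and 0.95 for those of miR-340-5p. Probes of different names were not compared in level.

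This middle-against-end difference chose the members and carries no test for them. From the fit it was 1.44 ± 0.19 (SE) for miR-218, 1.12 ± 0.23 for miR-455*, 0.93 ± 0.29 for miR-340-5p and 0.47 ± 0.19 for miR-455 on the log2 scale, against a median of 0.13 over all 322 tested. miR-218 ranked 3 of 322 in this difference, miR-455* 11, miR-340-5p 20 and miR-455 80. Over all miRNAs 38.5% were called in this contrast at an adjusted p under 0.05. A peak is a called miRNA whose middle ages averaged more than day 1 and more than day 42, and 44 of the 322 were peaks, or 13.7%. Among those peaks miR-218 had rank 3, miR-455* rank 4 and miR-340-5p rank 6 by size. These members were chosen in this same difference, so their places among the peaks are a description. miR-455 was not a peak, and its day 1 mean lay above the mean of its middle ages. The largest peaks of other names were miR-551b with 2.57 ± 0.40 and miR-153 with 1.60 ± 0.44. The next of the others, miR-542-3p with 0.94 ± 0.22, stands just above miR-340-5p and was not chosen, and miR-450a-5p with 0.91 ± 0.20 stands just below it.

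The step into the middle ages and the step out of them moved differently when the dimmest arrays were left out. Day 4 minus day 1 was 0.71 ± 0.29 for miR-218, 0.47 ± 0.34 for miR-455*, 0.61 ± 0.43 for miR-340-5p and 0.04 ± 0.28 for miR-455 (log2, SE). On the 18 brighter arrays these differences were 0.27, 0.11, 0.03 and 0.22 in the same order of members. Day 42 minus day 14 was -2.01 ± 0.30 for miR-218, -1.39 ± 0.36 for miR-455*, -0.95 ± 0.46 for miR-340-5p and -0.65 ± 0.30 for miR-455. Without the 6 dimmest arrays it was -1.80, -1.21, -0.62 and -0.98. Day 42 thus stayed below day 14 for all 4 members, while the early differences of miR-218, miR-455* and miR-340-5p were smaller. The middle-against-end difference itself became 1.07 for miR-218, 0.78 for miR-455*, 0.39 for miR-340-5p and 0.77 for miR-455. Of the 322, miR-218 then ranked 4, miR-455* 23, miR-340-5p 68 and miR-455 26. miR-455* no longer had middle ages above both ends, as they averaged 7.10 on the log2 scale, against 7.18 at day 1. Those of miR-340-5p averaged 8.03, against 8.01 at day 1, and those of miR-218 averaged 11.36, against 11.03 at day 1. Day 1 holds only 2 arrays in this comparison. What part the dim arrays had in the courses was not tested.

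**Figure D2:**
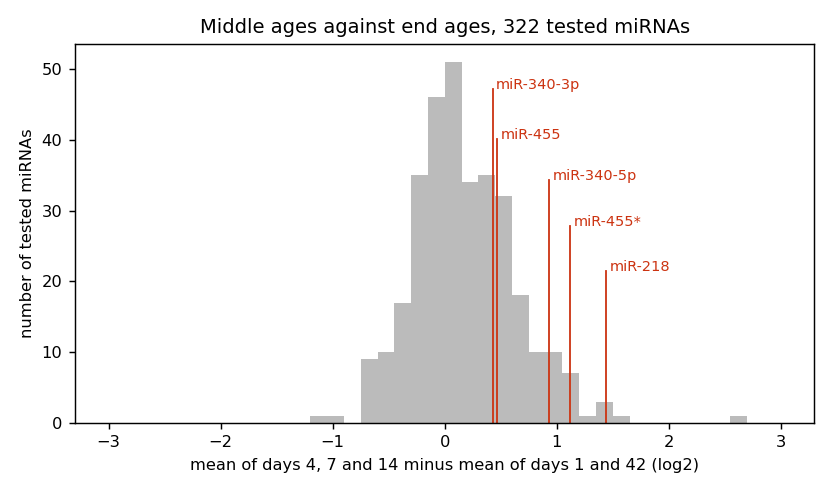
Histogram of the middle-against-end difference (x axis, log2; y axis, number of miRNAs) over the 322 tested miRNAs, with red lines at the members and at miR-340-3p. miR-218 lies at 1.44, miR-455* at 1.12 and miR-340-5p at 0.93 in the upper tail that chose them, whereas miR-455 at 0.47 and miR-340-3p at 0.43 lie inside the bulk.

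Day 42 against day 1 asks whether the levels of young adults differ from those of newborns. The choice of members did not use this difference, although both ages entered it as the ends below the middle ages. Over all miRNAs 61.8% were called in this contrast and 42.9% were called lower, and the median of all was -0.35, so a fall here is common. miR-455 fell by 1.78 ± 0.30 on the log2 scale (SE, limma adjusted p = 2.33e-05), a 3.42-fold lower level, and none of the day 42 arrays overlapped those of day 1, which held for 39.8% of all miRNAs. miR-455* fell by 1.14 ± 0.36 (limma adjusted p = 0.00955) and miR-218 fell by 0.94 ± 0.30 (limma adjusted p = 0.0101), both with arrays that overlapped. miR-340-5p had a difference of 0.01 ± 0.46 (limma adjusted p = 0.995), with a 95% interval from -0.94 to 0.95 that holds changes of nearly 2-fold either way.

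Array brightness was higher at day 42 than at day 1 by 1.00 on the log2 scale, and the differences moved when it was taken into account. In this contrast 222 of the 322 miRNAs were called without the 6 dimmest arrays and 204 with brightness as a covariate. Without the 6 dimmest arrays miR-340-5p was lower at day 42 by the test, with a difference of -0.74 ± 0.16 (limma adjusted p = 0.000716), and with brightness as a covariate the difference was -1.27 ± 0.36 (limma adjusted p = 0.00409). miR-218 differed by -1.48 ± 0.11 without the dimmest arrays (limma adjusted p = 9.31e-09) and by -1.74 ± 0.26 with the covariate. miR-455* differed by -1.72 ± 0.18 without them (limma adjusted p = 2.60e-07) and by -2.04 ± 0.33 with the covariate. miR-455 was nearer to 0 with the covariate, at -0.82 ± 0.17 (limma adjusted p = 0.00024), and was -1.58 ± 0.22 without the dimmest arrays. What part brightness had in these differences was not tested.

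Each of the 3 slides carried 8 arrays and every age. Day 42 minus day 1 within slides 1, 2 and 3 was -2.47, -1.41 and -0.84 for miR-455, -0.25, -1.38 and -1.73 for miR-218, and -0.59, -1.50 and -1.83 for miR-455*. All 3 members were lower at day 42 on each slide. For miR-340-5p the slides gave 1.06, -0.68 and -1.20, so they did not share a direction. Slides 1 and 3 hold 3 of the dimmest arrays each, and slide 2 holds 0 of them. On slide 2 alone all 4 members were lower at day 42, with 2 arrays of day 42 and 1 of day 1.

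Scaling between arrays also moved these calls. Under 4 other scalings and the authors' deposited table, all of which put the median of all miRNAs between 0.01 and 0.64 in this contrast, miR-455 was lower at day 42 and called each time. When the percentile was taken over all names miR-218 lost its call (-0.28), as it did with median scaling (-0.57) and without scaling (0.064). miR-455* lost its call with that percentile (-0.48), without scaling (-0.13), after quantile normalization (-0.040) and in the authors' deposited table (0.048). miR-340-5p was above 0 and not called in each of these settings. It was at 0.67 with that percentile, 0.37 with median scaling and 0.83 after quantile normalization. Without scaling it was at 1.01, and in the authors' deposited table at 0.86.

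**Figure D3:**
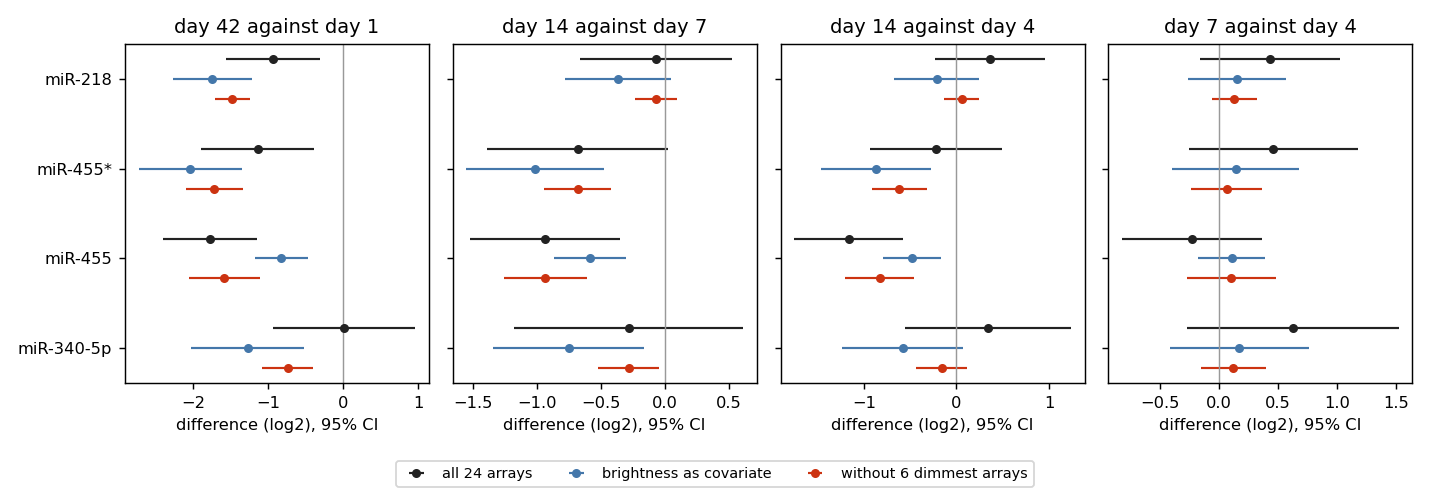
Difference of log2 levels with its 95% confidence interval (x axis) for each member in 4 contrasts, from all 24 arrays (black), with array brightness as a covariate (blue) and without the 6 dimmest arrays (red). In day 42 against day 1 the black interval of miR-340-5p spans 0 while its other 2 do not, and miR-455 lies below 0 in the first 3 panels under all 3 fits.

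Between day 4 and day 7 no member passed the test. For day 7 against day 4, 0.311% of all miRNAs were called (1 of 322 by limma, with 15 at an unadjusted p under 0.05), and that one was no member. The differences were 0.43 ± 0.29 for miR-218, 0.46 ± 0.34 for miR-455*, 0.62 ± 0.43 for miR-340-5p and -0.23 ± 0.28 for miR-455, with limma adjusted p-values from 0.682 to 0.729. Without the 6 dimmest arrays they lay between 0.07 and 0.13, and the interval for miR-218 ran from -0.06 to 0.32.

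Between day 7 and day 14 miR-455 fell, and the other 3 members did not pass the test. For day 14 against day 7, 31.4% of all miRNAs were called, 23.9% were called lower and 37% had arrays that did not overlap. miR-455 fell by 0.94 ± 0.28 (limma adjusted p = 0.0126), with no overlap. miR-455* had -0.68 ± 0.34 (limma adjusted p = 0.141), which is not called although its arrays did not overlap. The same difference was called without the 6 dimmest arrays, none of which belong to these ages (limma adjusted p = 0.000194), because the SE is shared between ages and was then 0.12. miR-340-5p had -0.28 ± 0.43 (limma adjusted p = 0.699) and miR-218 -0.07 ± 0.29 (limma adjusted p = 0.881). Without the 6 dimmest arrays the interval for miR-218 ran from -0.23 to 0.09, and miR-340-5p was called with the same difference of -0.28 (limma adjusted p = 0.0457). Of all miRNAs, 170 of the 322 were then called in this contrast.

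The call of miR-455 in this step depends on the scaling. It lost its call when the percentile was taken over all names (-0.57, limma adjusted p = 0.106), with median scaling (-0.78, adjusted p = 0.0552), with quantile normalization (-0.73, adjusted p = 0.101), in the authors' deposited table (-0.71, adjusted p = 0.0932) and with normexp background correction (-0.36, adjusted p = 0.696). Within slides 1, 2 and 3 the difference was -1.13, -0.92 and -0.66.

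For day 14 against day 4, 39.4% of all miRNAs were called and 28.3% were called lower. miR-455 fell by 1.16 ± 0.28 (limma adjusted p = 0.00205), with no overlap between the ages, as for 30.7% of all miRNAs. Within the slides it was -1.96, -0.87 and -1.02, and without the 6 dimmest arrays -0.83 ± 0.18 (limma adjusted p = 0.000877). With normexp background correction the call was lost (-0.57, limma adjusted p = 0.546). miR-218 had 0.36 ± 0.29, miR-340-5p 0.34 ± 0.43 and miR-455* -0.22 ± 0.34, none of them called. Without the dimmest arrays miR-455* was at -0.62 ± 0.14 in this contrast and was called (limma adjusted p = 0.00165). Of all miRNAs, 157 of the 322 were called in that fit.

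The members' levels moved with array brightness inside each age. With age in the model, the log2 level changed per doubling of brightness by 1.27 ± 0.22 for miR-340-5p (limma adjusted p = 3.66e-05), by 0.90 ± 0.20 for miR-455* (limma adjusted p = 0.000508), by 0.80 ± 0.15 for miR-218 (limma adjusted p = 0.000128) and by -0.95 ± 0.10 for miR-455 (limma adjusted p = 2.30e-07). Such slopes were common: 66.8% of all tested miRNAs were called, 74 of them (23%) positive and 141 negative, and the median slope was -0.18. The unscaled signal of miR-455 at day 1 differed at most 1.37-fold between arrays, whereas that of miR-218 differed 9.53-fold, that of miR-455* 12.1-fold and that of miR-340-5p 17.2-fold. At day 7, which holds none of the dimmest arrays, the same ratios were 1.24 for miR-455, 1.46 for miR-218, 1.39 for miR-455* and 1.65 for miR-340-5p. Brightness is also the value by which each array was divided. By construction, a signal that stayed flat before scaling therefore has a negative slope after it. The slopes describe scaled levels, and slopes of the unscaled signals were not fitted.

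**Figure D4:**
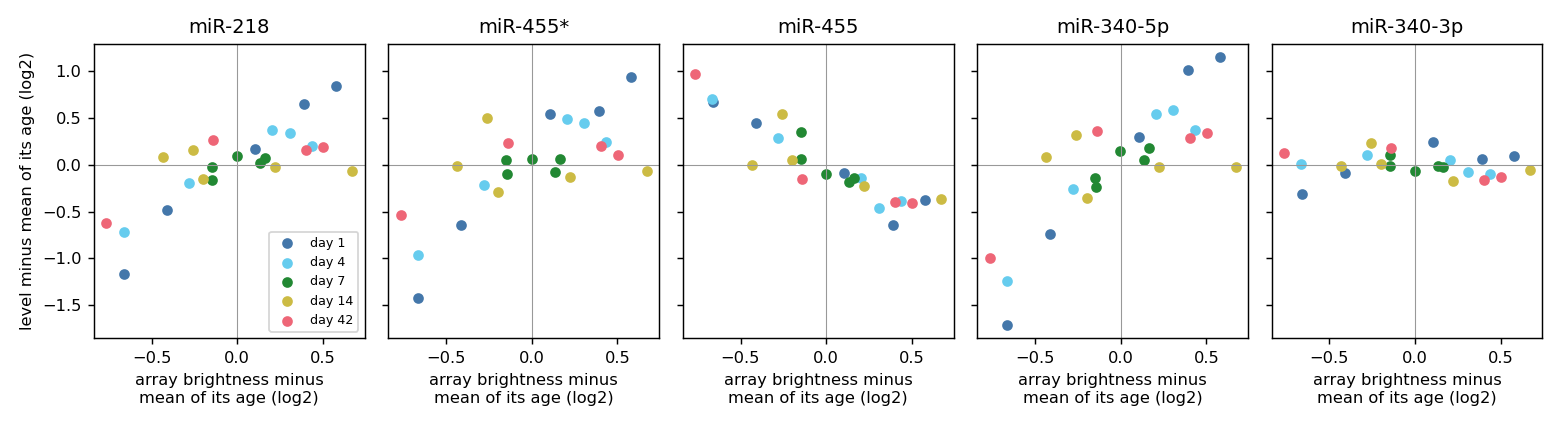
Deviation of each log2 level from the mean of its age (y axis) against the deviation of log2 array brightness from the mean of its age (x axis), 1 point per array and 1 colour per age, for the 4 members and miR-340-3p. Points climb for miR-218, miR-455* and miR-340-5p, fall for miR-455 and stay near the line for miR-340-3p, whose slope was -0.04.

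As a description over 24 arrays that share brightness and age, miR-218, miR-455* and miR-340-5p deviated together from the means of their ages. The correlation of these deviations was 0.995 between miR-218 and miR-340-5p, 0.967 between miR-218 and miR-455* and 0.968 between miR-455* and miR-340-5p. miR-455 ran against all 3, with correlations from -0.82 to -0.69, including -0.69 with its own partner arm. These are deviations of scaled levels, into which the division by brightness enters.

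The arms of the miR-455 hairpin were compared as miR-455* minus miR-455 on each array, a log2 difference of signals from different probes, in which the scaling cancels and of which only changes between arrays are read. It was -2.01, -1.42, -1.33, -4.73 and -3.74 at day 1 and -3.89, -1.59, -2.72, -1.58 and -1.30 at day 4. The 6 dimmest arrays lay from -4.73 to -2.01 and the other 18 from -1.84 to -0.97, with no overlap. For days 1, 4, 7 and 14 it averaged -2.65 ± 1.52, -2.22 ± 1.08, -1.53 ± 0.23 and -1.27 ± 0.23 (SD, n = 5 each), and for day 42 -2.01 ± 1.01 (SD, n = 4). On the other 18 arrays the difference averaged -1.43 ± 0.20 (SD, n = 18) over all ages.

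No change of the arm difference between ages passed the test. The change was 0.64 for day 42 against day 1, 0.69 for day 7 against day 4, 0.25 for day 14 against day 7 and 0.94 for day 14 against day 4. In two-sided exact permutation tests, adjusted over these 4, p was 0.508, 0.36, 0.254 and 0.254, where the smallest unadjusted p the design allows is 0.00794. Leaving out day 1 replicate 4 brought the change of day 42 against day 1 to 0.11, and leaving out day 42 replicate 4 brought it to 1.14. Leaving out day 4 replicate 1 brought that of day 7 against day 4 to 0.27 and that of day 14 against day 4 to 0.52. With normexp background correction the changes of day 14 against day 7 (0.40) and against day 4 (0.63) passed, each with an exact permutation adjusted p of 0.0317.

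**Figure D5:**
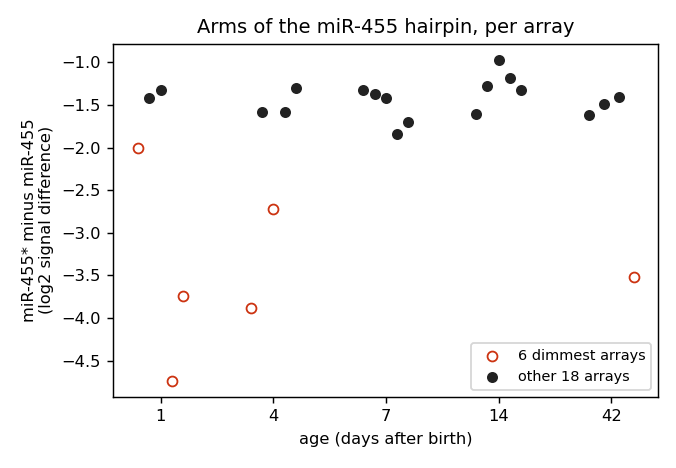
Difference of log2 signals between miR-455* and miR-455 on each array (y axis) by age in days (x axis); filled points are the 18 brighter arrays and open points the 6 dimmest. The filled points of all ages lie between -1.84 and -0.97 and the open points lie lower.

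The other arms of the remaining hairpins are no members, so all contrasts may be tested on them. miR-218-1* and miR-218-2*, the 3p arms of the miR-218 hairpins, were detected on 0 of 24 arrays and were not tested. miR-340-3p was detected on all 24 arrays, with levels of 152, 135, 138, 104 and 122 at day 1, 154, 159, 165, 143 and 145 at day 4, and 149, 145, 150, 163 and 150 at day 7. It had 129, 128, 124, 114 and 151 at day 14 and 101, 81.3, 79.3 and 96.9 at day 42. Its arrays of an age lay close together, including the dimmest ones, and those of day 42 lay below all others. How many of all miRNAs have day 42 below all others was not counted.

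miR-340-3p had a middle-against-end difference of 0.43 ± 0.07 (limma adjusted p = 0.000143), which was 0.39 ± 0.07 without the 6 dimmest arrays. With normexp background correction it was 0.00031 ± 0.28 and was not called (limma adjusted p = 0.999). It fell by 0.53 ± 0.12 at day 42 against day 1 (limma adjusted p = 0.000473) and by 0.53 ± 0.12 against day 14 (limma adjusted p = 0.00113). The fall against day 1 depends on the scaling: it was -0.17 and not called with median scaling, 0.32 and called higher with quantile normalization (limma adjusted p = 0.00509), and 0.76 and called higher in the authors' deposited table (limma adjusted p = 5.33e-08). Its slope on brightness was -0.04 ± 0.08 (limma adjusted p = 0.703), against 1.27 for the arm miR-340-5p.

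Among the 226 other miRNAs detected on all arrays, those with the most similar course over the 24 arrays were found by Pearson's correlation of log2 levels, given as a description of arrays that share age and brightness. For miR-218 they were miR-542-3p and miR-450a-5p (0.957 each), miR-152 (0.906) and miR-106b (0.898). For miR-455* they were miR-19b (0.966), miR-301a (0.957), miR-324-5p (0.953) and miR-542-3p (0.936). For miR-340-5p they were miR-872 (0.982), miR-106b (0.963), miR-96 (0.938) and miR-324-5p (0.932). miR-455 had another set, with miR-181b (0.972), miR-181a-1* (0.964), miR-106b* (0.958) and miR-351 (0.956).

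Known cell-type miRNAs were followed beside the members. In the middle-against-end contrast 32% of all miRNAs were called higher and 6.52% lower. Day 1 and day 42 are averaged in it, so a call alone does not place the middle ages beyond each end. Of the 6 names listed for fibroblasts and smooth muscle, 3 were called higher in this contrast, namely miR-143 (0.48 ± 0.10), miR-199a-5p (0.32 ± 0.09) and miR-199a-3p (0.29 ± 0.08). Only miR-143 of them was a peak. The other fibroblast and smooth muscle names, not called, were miR-145 (0.12 ± 0.19), miR-214 (0.01 ± 0.22) and miR-10a (-0.21 ± 0.13). Day 42 minus day 1 was -1.61 for miR-199a-5p and -0.78 for miR-199a-3p. The summed log2 level of the 6 names ran from 14.39 to 14.75 at day 1 and from 14.49 to 14.85 at day 4. It then ran from 14.48 to 14.68 (day 7), 14.19 to 14.45 (day 14) and 13.93 to 14.40 (day 42). Of these 6 names 3 were lower at day 42 than at day 1 and 1 was higher. Of 6 leukocyte names 3 were called lower in the middle-against-end contrast, namely miR-223 (-0.69 ± 0.10), miR-150 (-0.68 ± 0.21) and miR-155 (-0.62 ± 0.14). The other leukocyte names, not called, were miR-146a (-0.24 ± 0.11), miR-142-5p (-0.04 ± 0.31) and miR-142-3p (0.23 ± 0.38). All 6 were higher at day 42 than at day 1, as 18.9% of all miRNAs were. That difference was 0.43 for miR-223, 1.60 for miR-150 and 1.80 for miR-155, and it raises the end mean of the contrast. The summed log2 level of the 6 was 13.63 to 13.95 at day 42, against 12.28 to 13.07 at day 1. The 2 cartilage names, miR-140 and miR-140*, were higher at day 42 than at day 1, by 0.93 ± 0.29 and 0.71 ± 0.19, while both arms of miR-455 were lower. miR-140* was called lower in the middle-against-end contrast (-0.33 ± 0.12, limma adjusted p = 0.0381). Of the 4 endothelial names 3 were higher at day 42 than at day 1, namely miR-126-3p (0.79 ± 0.14), miR-126-5p (0.75 ± 0.30) and miR-222 (0.99 ± 0.25), with a summed log2 level of 15.95 to 16.39 at day 42, against 15.02 to 15.62 at day 1. miR-126-5p was also higher in the middle ages (0.49 ± 0.19). Of the 5 epithelial names miR-200a was higher at day 42 than at day 1 (0.68 ± 0.24) and miR-200b was lower in the middle ages (-0.28 ± 0.11). None of the 3 red blood cell, 4 striated muscle and 1 neuronal names tested passed the limma test in the middle-against-end contrast, and of them miR-208b, a muscle name, was lower at day 42 than at day 1 (-2.25 ± 0.73). Without the 6 dimmest arrays the names called higher at day 42 were 2 of 4 endothelial, 0 of 5 epithelial, 1 of 2 cartilage and 6 of 6 leukocyte names. In the middle-against-end contrast 3 of the 4 striated muscle names were then called lower, with a median of -1.62. The same held for 4 of 6 leukocyte, 0 of 5 epithelial and 0 of 2 cartilage names. With the percentile over all names or with median scaling, 1 of the 6 fibroblast and smooth muscle names was called higher in the middle-against-end contrast. The part of these cell types in the members' levels was not tested.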

How the data were processed

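Per the file headers, each array file was made with Agilent Feature Extraction 10.7.1.1, which the submitters' processing notes also name, and holds intensity values per spot, background-subtracted by the authors' software and not adjusted between arrays. Per the labels, RNA was extracted with a miRNeasy kit and 100 ng was labelled with Cy3. The authors' deposited series table holds log2 values whose making after extraction is not given in the sources used here, and it served as an alternative.

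The spots of a probe were averaged without the 319 to 523 outlier spots per array, and the probes of a name were summed (13000 miRNA spots, 1857 probes, 0 saturated). Each array was scaled by its 75th percentile over the 228 names with detection on all arrays, times a common factor of 2248. Values under a floor of 7.24 were set to it, and log2 was taken. The 322 names whose arrays of some age all showed detection were tested with limma 3.58.1 (R 4.3.3), with 5 ages as groups, 19 residual degrees of freedom and Benjamini-Hochberg adjustment over the 322. Tests are two-sided, called means an adjusted p under 0.05, and the text uses ± for the SE unless SD is named. The number of arrays limits the precision.

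The members and lists were chosen with earlier results of these data known. Named are the members, the other arms of their hairpins, the 4 most correlated miRNAs per member, the 3 largest other peaks with the members' ranks, miRNAs sharing a seed, and listed cell-type miRNAs. Alternatives were other scalings, the deposited table, normexp (offset 50, on median signals, since the mean signal planned for it was not in the files), no detection filter, single probes, slides, brightness and left-out arrays. Same-numbered arrays of different ages did not deviate together (mean correlation -0.03 against 0.01 for other numbers), so the numbers pair nothing. Python 3.11.15, pandas 2.3.3 and matplotlib 3.10.9 were used for reading and drawing. Genes and sequences are from RefSeq.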

Additional observations from a re-analysis of the deposited data

Results flagged for a closer look

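Day 42 replicate 4, the dimmest array of its age, stood apart from the other 3 arrays of day 42 for 3 members, by the gap to the nearest array over the range of the group. Its log2 level was 8.73 for miR-218, with the nearest array at 9.51 and a gap of 0.876 of the range. It was 4.74 for miR-455*, with the nearest at 5.38 and 0.832 of the range, and 5.94 for miR-340-5p, with the nearest at 7.23 and 0.943 of the range. These are 3 of the 30 groups of arrays examined, and chance alone marks about 1 in 20. For miR-455 the same array was the highest of day 42. The 3 outlying values come from 1 array and are not independent.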

How the results depend on the processing

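Values are log2 differences. The cause of these changes was not tested, beyond what the construction of a setting shows. On day 1 replicate 4 miR-455* and miR-340-5p were not detected, and day 1 has 2 arrays without the 6 dimmest. The fall of miR-455 at day 42 against day 1 was called under each alternative that has a test. The detection filter, the slide as a block and the replicate block changed no call of a member. With the slide as a block miR-340-5p turned to -0.16 at day 42 against day 1, again not called. With the replicate block, used only as a check because the numbers do not pair the arrays, day 42 against day 1 gave -0.95 for miR-218, -1.74 for miR-455, -1.13 for miR-455* and 0.0013 for miR-340-5p.

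For day 42 against day 1, the 75th percentile over all names gave -0.28 for miR-218 and -0.48 for miR-455*. Median scaling gave -0.57 for miR-218. No scaling gave 0.064 for miR-218 and -0.13 for miR-455*. miR-455* was at -0.040 with quantile normalization and 0.048 in the authors' table. miR-340-5p was at -0.89 with normexp, -1.27 with brightness as a covariate, -1.08 without the 5 and -0.74 without the 6 dimmest arrays (the set of 6 was chosen after seeing the data), and -0.014 by probe 1 alone. Under the other scalings and in the authors' table it was above 0 and not called, from 0.37 (median scaling) to 1.01 (no scaling). Single slides moved values by more than an SD on slide 1 (-0.25 for miR-218, -2.47 for miR-455, 1.06 for miR-340-5p) and slide 3 (-1.73, -0.84 and -1.20, with -1.83 for miR-455*). miR-340-3p turned to 0.13 with the percentile over all names, 0.32 with quantile normalization, 0.47 without scaling and 0.76 in the authors' table. Among calls, 30.7% were higher by the main scaling, against 61.6% with the percentile over all names, 51.3% with the median, 57.2% with quantile normalization, 71.4% without scaling, 16.1% with normexp and 60.2% in the authors' table, with medians of all miRNAs of -0.35, 0.30, 0.01, 0.21, 0.64, -1.19 and 0.31.

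For day 7 against day 4, limma called 0 miRNAs with quantile normalization, no scaling, normexp, the deposited table and without the 5 or 6 dimmest arrays, against 1. miR-455 turned to 0.13 without scaling, 0.11 with the covariate and 0.10 without the 5 or 6 dimmest. Slide 1 gave 1.18 for miR-218, -0.83 for miR-455, 1.48 for miR-455* and 1.89 for miR-340-5p. miR-340-3p turned to 0.017 with quantile normalization, 0.34 without scaling, 0.0054 in the deposited table and 0.022 without the 5 or 6 dimmest.

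For day 14 against day 7, 156 miRNAs were called with the percentile over all names, 9 with normexp, 153 with the covariate and 170 without the 6 dimmest, against 101. miR-218 turned to 0.29 with the percentile over all names, 0.089 with the median and 0.30 without scaling. miR-455 was not called at -0.57, -0.78, -0.73, -0.36 and -0.71 (percentile over all names, median, quantile, normexp, deposited table). miR-455* turned to 0.036 with normexp and was called at -1.01 with the covariate and -0.68 without the 5 or 6 dimmest. miR-340-5p turned to 0.080 with the percentile over all names, 0.085 with normexp and 0.087 without scaling, and was called at -0.75 with the covariate and -0.28 without the 6 dimmest. miR-340-3p turned to 0.13 with the percentile over all names and quantile normalization, 0.14 without scaling, 0.27 with normexp and 0.15 in the deposited table.

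For day 14 against day 4, normexp called 11 miRNAs, against 127. The percentile over all names called 173, the covariate 144, and the fits without the 5 and the 6 dimmest arrays 130 and 157. miR-218 was called at 0.71 with the percentile over all names and turned to -0.21 with the covariate. miR-455 was not called at -0.57 with normexp. miR-455* turned to 0.12, 0.16, 0.50, 0.057 and 0.13 (percentile over all names, quantile, no scaling, normexp, deposited table) and was called at -0.87 with the covariate and -0.62 without the 5 or 6 dimmest. miR-340-5p turned to -0.58 with the covariate and -0.16 without the 5 or 6 dimmest. Slide 1 gave 1.00 for miR-218, -1.96 for miR-455, 0.53 for miR-455* and 1.40 for miR-340-5p. miR-340-3p turned to 0.10, 0.15, 0.48, 0.11 and 0.16 in the order of settings given for miR-455*.

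In the middle-against-end difference, normexp called 22 miRNAs, against 124, put miR-455* at 0.28, and left miR-340-3p at 0.00031 and not called. Slide 3 put miR-455 at -0.084. The arm difference turned to -0.13 for day 42 against day 1 and -0.038 for day 7 against day 4 without the 6 dimmest, and passed with normexp at 0.40 for day 14 against day 7 and 0.63 against day 4. Leaving out 1 array at a time changed the direction only of miR-340-5p at day 42 against day 1, with a lowest value of -0.42 (day 1 replicate 4 left out) and a highest of 0.34 (day 42 replicate 4 left out), and of miR-340-3p at day 7 against day 4, with -0.043 and 0.0099. No call of a member was lost.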

Other observations

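Opposite slopes of the arms of a hairpin on array brightness were not limited to miR-455. Of 66 hairpins with both arms tested, 20 had arms whose deviations from the means of their ages correlated below 0. The miR-455 arms ranked 4 of 66 by the difference of their slopes, with 1.84 against a median of 0.62, and had the fourth lowest correlation. The miR-340 arms ranked 11, with a slope difference of 1.31 and a correlation of 0.32. The pair of miR-29b* and miR-29b ranked first, with slopes of -0.49 and 2.02, and was named after its value was seen. These are descriptions of scaled levels, into which the division by brightness enters, over 24 arrays that share brightness, with no test.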
